A study of Mus musculus with 6 samples.

Results

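The genes described here are 10 imprinted genes that regulate growth (H19, Meg3, Mest, Cdkn1c, Plagl1, Grb10, Slc22a18, Peg3, Dlk1 and Igf2r), taken by symbol from a deposited table of 24413 genes, in which all 10 were found. They were chosen by name with the conditioned and control FPKM of these same libraries already known, so their differences between the media, and the calls that go with them, are given as a description and not as independent evidence. The cells came from Achilles tendons of 12-week-old male mice carrying the alleles Tppp3ECE/+;R26RtdT-CreERT2;ScxGFP, and were sorted for the red fluorescent reporter tdT that follows the Tppp3 lineage, a lineage of tendon sheath and progenitor cells. The tested libraries (n = 3) were from cells kept for 24 h in medium conditioned by dorsal root ganglion (DRG) cultures, and the control libraries (n = 3) were from cells of the same genotype kept for 24 h in medium with 1% FBS. The conditioned medium came from ganglion cells of 12-week-old male C57BL/6J mice, cultured for 4 to 5 days with the antimitotic agents 5-fluoro-2-deoxyuridine and uridine at 20 µM each and then moved to medium with 1% FBS. The protocol names 3 tendon donors without saying which library came from which, and p-values therefore reflect the spread between these libraries alone, which may be technical.

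An imprinted gene is transcribed mainly from the copy inherited from 1 parent. Such genes lie in clusters under shared control regions whose DNA methylation is set in the germ line, and many of them act on growth: as a rule those expressed from the paternal copy promote it and those expressed from the maternal copy restrain it. In mouse muscle and other mesodermal tissues many are abundant before and shortly after birth and are turned down together as growth slows, which is why they have been described as a network. Of the 10 genes, H19, Meg3, Cdkn1c, Slc22a18, Igf2r and, outside neurons, Grb10 are expressed from the maternal copy, and Mest, Plagl1, Peg3 and Dlk1 from the paternal copy. The libraries give the sum over both copies and cannot tell them apart.

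With conditioned medium, 6 of the 8 members that could be tested were lower and 0 were higher. H19 fell most, to 0.593 of its control level, followed by Mest at 0.630, Cdkn1c at 0.677, Plagl1 at 0.681, Meg3 at 0.743 and Slc22a18 at 0.757. Grb10 and Igf2r, at ratios of 1.00 and 0.922, did not pass the test, and Peg3 and Dlk1 were below the level at which genes were tested. The test was limma's moderated linear model on log2(FPKM + 1) over the 11678 genes that averaged 1 FPKM or more (fragments per kilobase of gene, scaled to library depth), with Benjamini-Hochberg adjusted p-values and a threshold of 0.05. At this threshold 2.49% of all genes tested were lower and 4.04% were higher. At an unadjusted p below 0.05 limma had 7 members lower and 0 higher, where 8.41% of all genes tested were lower and 11.2% higher. By voom, limma's model for fragment counts, 5 members were lower and 0 higher, where 3.72% of all genes were lower and 6.11% higher. The median log2 fold change of the 8 members was -0.42, against 0.01 for all genes tested. The log2 fold change was below 0 for 7 of the 8, and for 48.0% of all genes tested. The 3 conditioned libraries lay below the 3 control libraries for 7 members, a pattern that 11.6% of all genes tested showed.

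**Figure D1:**
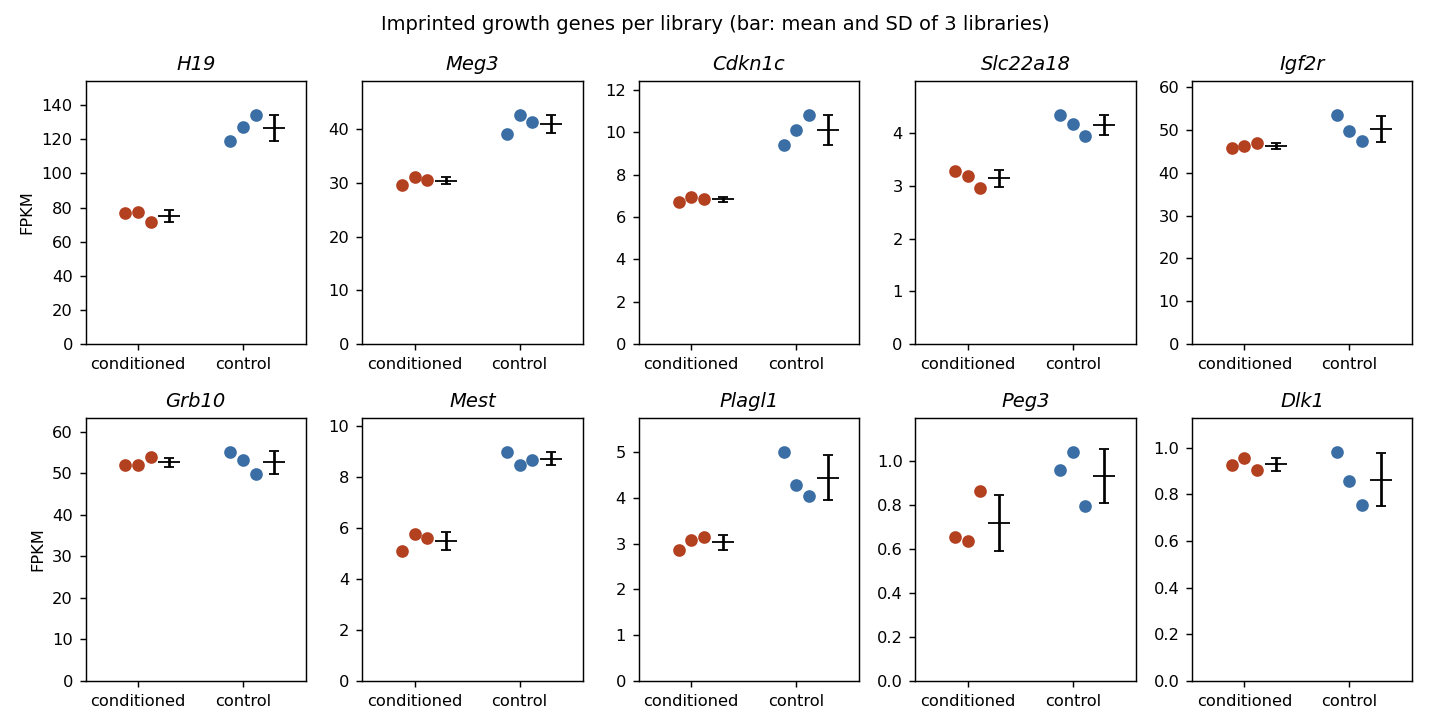
Level in FPKM (vertical axes, each from 0) of the 10 members in each of 3 conditioned libraries (left, red points) and 3 control libraries (right, blue points), with the mean and SD beside them. H19 has 71.3 to 77.3 FPKM in conditioned and 119 to 134 FPKM in control libraries, whereas the points of Grb10, Peg3 and Dlk1 overlap between the media.

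Depth was 18774552 to 26061244 fragments per library, and the spread between libraries of a group exceeded that of counting alone, with chi-square values of 3.15 to 7.02 per degree of freedom. Of 9 tendon markers, 8 were tested and 6 were lower with conditioned medium, where 2.49% of all genes tested were. The list summed to 3611 to 3710 FPKM in conditioned and 4570 to 4700 FPKM in control libraries, most of it Col1a1. Markers of DRG neurons summed to 21.4 to 23.3 FPKM in conditioned and 27.2 to 30.7 FPKM in control libraries, most of it the tubulin gene Tubb3. Tubb3 was lower with conditioned medium (log2 fold change -0.43, limma adjusted p = 0.0018). Without it the sums were 5.36 to 6.12 and 5.61 to 6.81 FPKM in the same order. Of 13 measured markers, 11 were below a mean of 1 FPKM, with Nefl, Calca and Nefh at 0 in several libraries. Schwann and satellite glia markers (8 of 9 below 1 FPKM) summed to 2.26 to 3.51 FPKM in conditioned and 3.41 to 4.08 FPKM in control libraries, and macrophage markers (6 of 9) to 6.77 to 7.16 and 6.71 to 7.95 FPKM in the same order. Endothelial markers (5 of 6) summed to 4.43 to 4.87 FPKM in conditioned and 5.76 to 6.55 FPKM in control libraries, nearly all of it Tek. Tek was lower with conditioned medium (log2 fold change -0.33, limma adjusted p = 0.023). Pericyte and smooth muscle markers summed to 36.4 to 37.2 FPKM in conditioned and 34.9 to 35.6 FPKM in control libraries; Myh11 was higher with conditioned medium, and the rest summed to 18.4 to 18.5 and 20.4 to 20.9 FPKM in the same order. The 3 myogenic markers measured summed to 41.0 to 44.5 FPKM in conditioned and 41.1 to 44.2 FPKM in control libraries, most of it the actin gene Acta1. Of the listed markers, Rbfox3, Snap25, Tac1, Scn10a and Pou4f1 (DRG neurons) had no entry among the 24413 genes. The same held for Cldn5 (endothelial) and for Pax7, Myf5, Myod1, Myog and Ckm (myogenic). Every gene with an entry was above 0 in at least 1 library, so no measured marker could be at 0 in all of them. The part that any of these lists had in the differences of the members was not tested. Tppp3 itself had 0.777 to 1.12 FPKM in conditioned and 0.724 to 1.05 FPKM in control libraries. In bulk libraries, fewer cells that express a gene and less RNA of it per cell cannot be told apart.

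H19 and Meg3 are the 2 noncoding RNAs among the members, and both are spliced, polyadenylated and expressed from the maternal copy. H19 (ENSMUSG00000000031) lies on chromosome 7 from 142575529 to 142578143 on the minus strand (mm10, GENCODE M21). It had 76.7, 77.3 and 71.3 FPKM in the conditioned libraries, against 119, 127 and 134 FPKM in the control libraries. All 3 conditioned values lay far below the lowest control value, and H19 was nevertheless the most abundant member per length in both media. The mean was 75.1 ± 3.32 FPKM in conditioned and 127 ± 7.72 FPKM in control libraries (SD, n = 3 each), with a log2 fold change of -0.75 ± 0.05 (SE; limma adjusted p = 1.2e-04). Ordered by log2 fold change, it was gene 36 from the bottom of the 11678 tested.

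The H19 transcript is the precursor of miR-675, which is cut from it, and an intron of Mest carries miR-335. Meg3, which was also lower, holds miR-770 on its strand, so H19 and Mest are not the only miRNA hosts among the members. The mature sequences of miR-675 and miR-335 are shown, from RefSeq on GRCm38.p6, because the libraries measured the hosts and not the mature products. Capitals mark the seed, bases 2 to 8, by which a miRNA pairs with its targets.
mmu-miR-675-5p: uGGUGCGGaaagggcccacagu
mmu-miR-675-3p: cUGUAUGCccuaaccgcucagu
mmu-miR-335-5p: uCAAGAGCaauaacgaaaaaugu
mmu-miR-335-3p: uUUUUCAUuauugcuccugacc
The 4 seeds all differ, and each was found in 1 mature mouse miRNA of the RefSeq table, itself. Both miR-675 arms lie within H19 on its strand, at chr7:142577112-142577133 and chr7:142577078-142577099. Both miR-335 arms lie within Mest on its strand, at chr6:30741314-30741336 and chr6:30741354-30741375. The gene Mir335 had 1, 0 and 0 fragments in conditioned and 0, 0 and 1 fragments in control libraries, below the 3 fragments that a count of 0 allows, so no level can be read for it here.

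Meg3 (ENSMUSG00000021268; chromosome 12 from 109541001 to 109571726, plus strand) is a maternally expressed RNA of the Dlk1-Dio3 cluster. It had 29.7, 31.1 and 30.6 FPKM in conditioned libraries and 39.2, 42.6 and 41.3 FPKM in control libraries. No conditioned value came near the control range. The log2 fold change was -0.42 ± 0.04 SE (limma adjusted p = 8.2e-04), from 30.5 ± 0.700 FPKM in conditioned and 41.0 ± 1.71 FPKM in control libraries. Between 10592 and 20211 fragments lay behind each value, so that counting alone would give a coefficient of variation of 0.922% in conditioned and 0.761% in control libraries; the observed values were 2.30% and 4.16% in the same order.

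Cdkn1c encodes p57, an inhibitor of cyclin-dependent kinases that holds cells out of the cell cycle. It lies on chromosome 7 from 143458339 to 143461050 (ENSMUSG00000037664, minus strand). Its values were 6.72, 6.93 and 6.85 FPKM in conditioned and 9.38, 10.1 and 10.8 FPKM in control libraries, without overlap. Conditioned libraries averaged 6.83 ± 0.109 FPKM and control libraries 10.1 ± 0.698 FPKM, a log2 fold change of -0.50 ± 0.06 SE (limma adjusted p = 0.0014). The coefficient of variation in conditioned libraries was 1.59%, below the 5.80% of counting alone, so that SD understates the error. In control libraries it was 6.92%, against 4.58% from counting. Among 7 other listed genes with a Cdkn symbol, all tested, 1 was lower and 0 were higher by limma, where 2.49% and 4.04% of all genes tested were. At an unadjusted limma p below 0.05, 2 were lower and 1, Cdkn3, was higher, where 8.41% and 11.2% were. By voom 1 was lower and 0 were higher, where 3.72% and 6.11% of all genes were. The gene lower by limma was Cdkn2b, which encodes p15. It had 91.3 ± 3.00 FPKM in conditioned and 112 ± 4.89 FPKM in control libraries (log2 fold change -0.29 ± 0.04 SE, limma adjusted p = 0.0059). Cdkn1a, which encodes p21, had 138 ± 1.90 FPKM in conditioned and 142 ± 2.30 FPKM in control libraries and did not pass (limma adjusted p = 0.50), and Cdkn2a had 81.8 ± 0.920 and 94.1 ± 10.5 FPKM in the same order (adjusted p = 0.22).

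Slc22a18, a transporter of the organic cation family, begins 12685 bases before the start of Cdkn1c and points the other way (ENSMUSG00000000154, chromosome 7 from 143473736 to 143499334, plus strand). It had 3.27, 3.19 and 2.96 FPKM in conditioned and 4.33, 4.17 and 3.94 FPKM in control libraries. The groups did not overlap, with control replicate 3 the lowest of its group. The log2 fold change was -0.31 ± 0.06 SE (limma adjusted p = 0.019), but only 102 to 186 fragments lay behind each value. This call was lost by voom (adjusted p = 0.079) and when any library other than control replicate 3 was left out. Without conditioned replicates 1, 2 and 3 in turn it was -0.34, -0.32 and -0.28 (limma adjusted p = 0.051, 0.069 and 0.067), and without control replicates 1 and 2 it was -0.29 and -0.31 (0.054 and 0.077). The ratio of Cdkn1c to Slc22a18 was 2.18 ± 0.132 in conditioned and 2.44 ± 0.286 in control libraries, with overlapping values.

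Igf2r and Grb10 are the members that act on insulin-like growth factor signals. Igf2r, the mannose 6-phosphate receptor that carries Igf2 to lysosomes, lies on chromosome 17 from 12682406 to 12769664 (ENSMUSG00000023830, minus strand). It had 45.7, 46.2 and 46.9 FPKM in conditioned libraries and 53.4, 49.7 and 47.5 FPKM in control libraries. The groups did not overlap, but the highest conditioned and the lowest control value were close, and the difference did not pass (log2 fold change -0.11 ± 0.05 SE, limma adjusted p = 0.23). Airn, the paternal antisense RNA that silences Igf2r in cis, overlaps 28354 bases of it; it had 0.891 ± 0.0857 FPKM in conditioned and 1.22 ± 0.188 FPKM in control libraries and did not pass (log2 fold change -0.23 ± 0.09 SE, adjusted p = 0.22). The library protocol describes both a stranded and an unstranded preparation, so fragments of Igf2r and Airn in their overlap cannot be told apart.

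Grb10, an adaptor protein that dampens signals of the insulin and IGF receptors, lies on chromosome 11 from 11930508 to 12038683 (ENSMUSG00000020176, minus strand). It had 51.9, 52.1 and 53.9 FPKM in conditioned and 55.1, 53.2 and 49.7 FPKM in control libraries. The conditioned values fell inside the control range, and the means were 52.7 ± 1.09 and 52.7 ± 2.72 FPKM in the same order. Its log2 fold change was 0.00 ± 0.04 SE (limma adjusted p = 1), on 8917 to 12695 fragments per library. The ligand Igf2 itself was close to absent, with 8, 11 and 10 fragments in conditioned and 5, 14 and 10 fragments in control libraries, although its neighbour H19, 72.6 kb away, had 3580 to 8209. Of 13 tested genes of the wider IGF and insulin list, 5 were lower and 1 was higher by limma, where 2.49% and 4.04% of all genes tested were. By voom 6 were lower and 3 were higher, where 3.72% and 6.11% of all genes tested were. At an unadjusted limma p below 0.05, 6 were lower and 3 were higher as well, where 8.41% and 11.2% of all genes tested were. The lower genes were the growth factor gene Igf1 (log2 fold change -0.52), Igfbp2 (-0.84), Igfbp3 (-0.58) and Igfbp4 (-0.19), which encode IGF-binding proteins, and Irs1 (-0.42), an adaptor of the insulin receptor. Grb14, a relative of Grb10, was the higher gene (0.35 ± 0.05 SE, limma adjusted p = 0.0069). Igfbp2 and Grb14 kept their calls without any single library, as did Irs1. Igf1 lost its call without conditioned replicate 1 or 2 or control replicate 2 (-0.50, -0.52 and -0.51 on the log2 scale; 0.068, 0.068 and 0.063 as limma adjusted p) and with no filter on low values (0.062). Igfbp3 lost its call without conditioned replicate 2 (-0.54; 0.070) and with no filter (0.051), and its log2 fold change by voom was -0.98. Igfbp4 lost its call without conditioned replicates 2 and 3 and control replicate 2 in turn (-0.18, -0.17 and -0.19; 0.099, 0.069 and 0.062) and with quantile normalization (-0.13; 0.13).

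**Figure D2:**
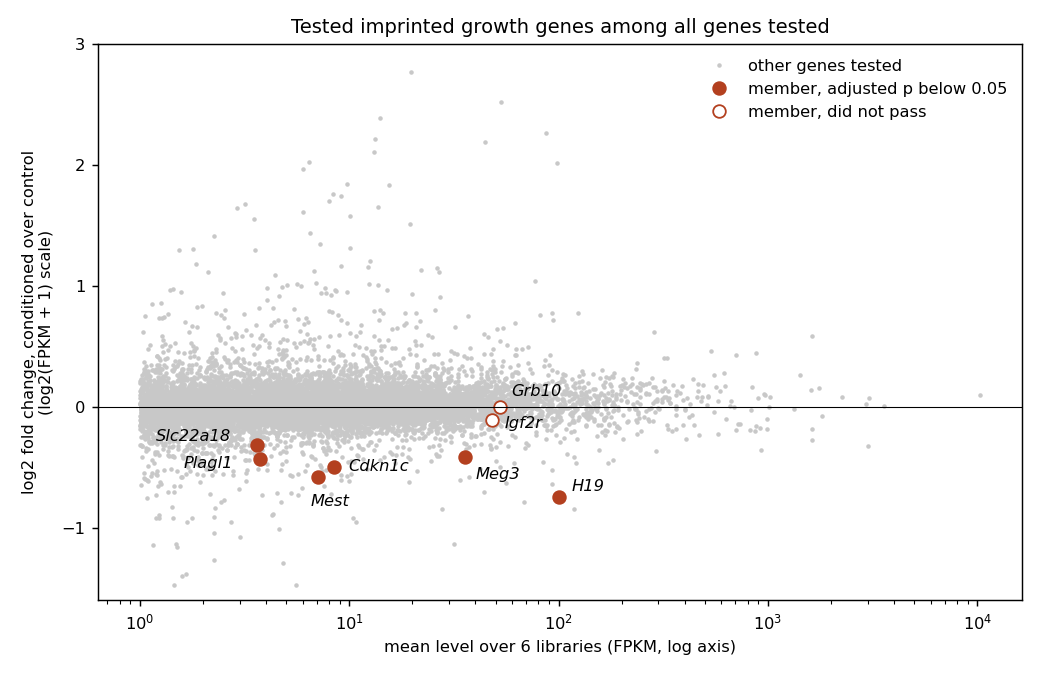
Each of the 11678 genes tested by its mean level over 6 libraries (horizontal, FPKM, log axis) and its log2 fold change, conditioned over control (vertical, log2(FPKM + 1) scale), with the 8 tested members in red, filled where the adjusted p was below 0.05. H19 sits at -0.75 among the abundant genes, and Grb10 sits at 0.00 at a level between those of Igf2r and H19.

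Plagl1 and Peg3 encode zinc finger proteins that bind DNA. Plagl1, also called Zac1, is known in mouse to act on other genes of the imprinted network, H19, Cdkn1c and Dlk1 among them. It lies on chromosome 10 from 13060504 to 13131694 (ENSMUSG00000019817, plus strand). It had 2.85, 3.08 and 3.15 FPKM in conditioned and 5.00, 4.27 and 4.05 FPKM in control libraries. The groups were apart, with a wider spread in the control libraries, where control replicate 1 was the highest. The log2 fold change was -0.43 ± 0.08 SE (limma adjusted p = 0.014), from 3.03 ± 0.155 FPKM in conditioned and 4.44 ± 0.497 FPKM in control libraries. The call was lost without conditioned replicate 1 (log2 fold change -0.40, adjusted p = 0.064) and without conditioned replicate 2 (-0.44, adjusted p = 0.057), and it held by voom (-0.55, adjusted p = 1.2e-04).

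Peg3 (ENSMUSG00000002265; chromosome 7 from 6703892 to 6730431, minus strand) had 0.652, 0.634 and 0.863 FPKM in conditioned and 0.957, 1.04 and 0.796 FPKM in control libraries. Conditioned replicate 3 lay above control replicate 3, so the groups overlapped. Its mean level was below 1 FPKM, and it was tested only when no filter was applied (log2 fold change -0.17 ± 0.09 SE, limma adjusted p = 0.51).

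Mest and Dlk1 are the paternally expressed genes with no DNA-binding role. Mest encodes a protein of the alpha/beta hydrolase fold and lies on chromosome 6 from 30723547 to 30748465 (ENSMUSG00000051855, plus strand). It had 5.08, 5.77 and 5.61 FPKM in conditioned libraries, against 8.97, 8.47 and 8.67 FPKM in control libraries. Each conditioned value was well below each control value, and the fall was the largest of the protein-coding members. The log2 fold change was -0.58 ± 0.06 SE (limma adjusted p = 6.6e-04). Copg2, which encodes a coat protein subunit and overlaps the end of Mest by 912 bases on the other strand, had 9.19 ± 0.132 FPKM in conditioned and 9.08 ± 0.456 FPKM in control libraries and did not pass (log2 fold change 0.02 ± 0.05 SE, adjusted p = 0.90).

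Dlk1, a transmembrane relative of the Notch ligands that holds back adipocyte differentiation, lies 77.7 kb from Meg3 on chromosome 12, from 109452823 to 109463336 (ENSMUSG00000040856, plus strand). It had 0.926, 0.958 and 0.903 FPKM in conditioned and 0.982, 0.856 and 0.754 FPKM in control libraries, on 86 to 129 fragments. The values overlapped, and without a filter the log2 fold change was 0.05 ± 0.08 SE (limma adjusted p = 0.82). Of 5 tested Notch pathway genes listed with it, 3 did not pass. The ligand gene Jag1 (log2 fold change -0.33) and the target gene Hes1 (-0.40) were lower, where 2.49% of all genes tested were. By voom 3 of the 5 were lower, where 3.72% of all genes tested were. Jag1 lost its call without conditioned replicate 2 (-0.32, limma adjusted p = 0.053).

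By level per length, the members spanned a wide range in both media. In conditioned libraries the order was H19, Grb10, Igf2r and Meg3 from 77.3 down to 29.7 FPKM, then Cdkn1c and Mest from 6.93 down to 5.08 FPKM, then Slc22a18 and Plagl1 near 3 FPKM, with Dlk1 and Peg3 below 1 FPKM. The ranges of Slc22a18 and Plagl1 overlapped there, and no other neighbours in the order did. In control libraries the ranges of Grb10 and Igf2r overlapped, as did those of Plagl1 and Slc22a18 and those of Peg3 and Dlk1.

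Most neighbours of the members and other imprinted genes did not pass the test. The share that passed was nevertheless above that of all genes tested, of which 6.53% were called in either direction. Of 46 tested genes in or beside imprinted domains other than the members, 4 were lower and 2 were higher. Among all genes tested 2.49% were lower and 4.04% higher. The median log2 fold change of the 46 genes was -0.03. At an unadjusted p below 0.05, 10 were lower and 2 higher, where 8.41% and 11.2% of all genes tested were. By voom 5 were lower and 2 higher, where 3.72% and 6.11% of all genes tested were. In the Dlk1-Dio3 cluster Rian, a noncoding RNA that follows Meg3 on the same strand after 32.2 kb, was lower: it had 21.6, 22.6 and 23.1 FPKM in conditioned and 30.0, 29.7 and 29.4 FPKM in control libraries. These groups were far apart, and the log2 fold change of Rian was -0.39 ± 0.04 SE (limma adjusted p = 8.1e-04). The ratio of Meg3 to Rian was 1.36 ± 0.0287 in conditioned and 1.38 ± 0.0657 in control libraries, a difference smaller than the spread. Mirg, the next RNA of the same strand, had 2.55 ± 0.129 FPKM in conditioned and 2.62 ± 0.278 FPKM in control libraries and did not pass (log2 fold change -0.02 ± 0.07 SE, adjusted p = 0.90).

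At the far end of that cluster, 707.3 kb beyond Meg3, Dio3 changed the other way. Dio3 encodes the type 3 deiodinase, which inactivates thyroid hormone, and is expressed mainly from the paternal copy. It had 107, 110 and 97.9 FPKM in conditioned libraries and 78.9, 74.5 and 80.2 FPKM in control libraries. All conditioned values were above all control values, with a log2 fold change of 0.42 ± 0.05 SE (limma adjusted p = 0.0020). The ratio of Dio3 to Meg3 was 3.60, 3.52 and 3.20 in conditioned and 2.01, 1.75 and 1.94 in control libraries. Rtl1, the paternally expressed gene antisense to part of the cluster, had 27 to 53 fragments in conditioned and 30 to 73 fragments in control libraries and was not tested.

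**Figure D3:**
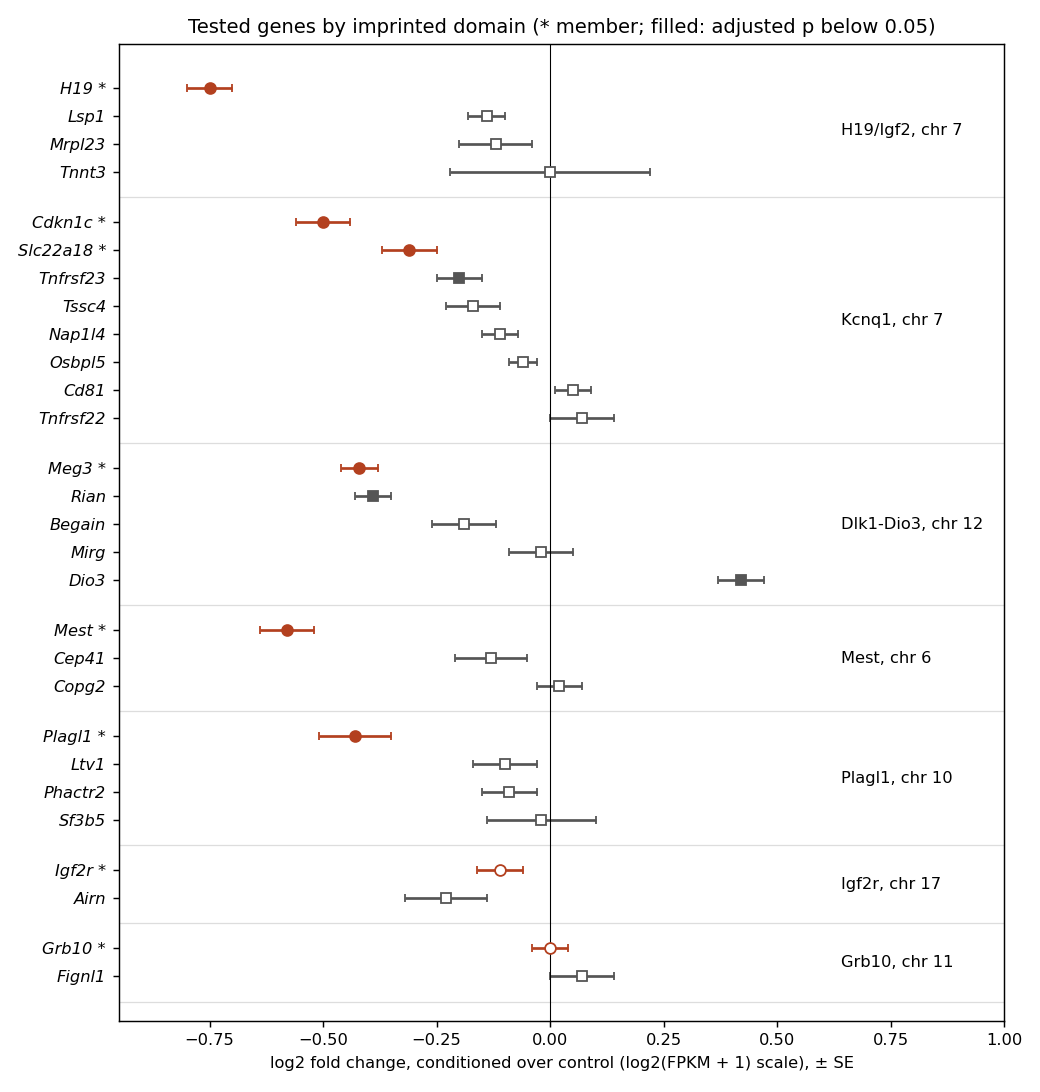
Log2 fold change with its SE, conditioned over control, for the tested genes of 7 imprinted domains (members in red with an asterisk, other genes in grey; filled symbols had an adjusted p below 0.05). Meg3 and Rian sit at -0.42 and -0.39 and Dio3 at 0.42 in the same domain.

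In the Kcnq1 domain of chromosome 7, which holds Cdkn1c and Slc22a18, 1 of 6 other tested genes passed, where 6.53% of all genes tested did. Tnfrsf23, a decoy receptor of the TNF family, had 14.8 ± 0.663 FPKM in conditioned and 17.1 ± 0.569 FPKM in control libraries (log2 fold change -0.20 ± 0.05 SE, limma adjusted p = 0.049), and lost its call without any single library, with adjusted p-values of 0.077 to 0.17 and log2 fold changes of -0.23 to -0.17. The other tested genes there did not pass: Tssc4 (log2 fold change -0.17, limma adjusted p = 0.16), Nap1l4 (-0.11, 0.14), Osbpl5 (-0.06, 0.41), Cd81 (0.05, 0.59) and Tnfrsf22 (0.07, 0.62), of which Tssc4 and Nap1l4 had an unadjusted p below 0.05. Kcnq1ot1, the paternal noncoding RNA that silences this domain, had 0.0378 ± 0.00877 FPKM in conditioned and 0.0582 ± 0.0210 FPKM in control libraries. Its groups overlapped, and it was below the level at which genes were tested (without a filter, limma adjusted p = 0.71). Phlda2, a maternally expressed gene known for its role in placental growth, had 1 fragment in the conditioned and 2 fragments in the control libraries altogether. Tested genes in the domains around H19, Mest, Igf2r, Grb10 and Plagl1 did not pass in limma; at an unadjusted p below 0.05 there were Lsp1 (log2 fold change -0.14, adjusted p = 0.11) and Airn, and by voom Lsp1 passed.

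Among 26 tested imprinted genes of other clusters, 2 were lower and 1 was higher, or 11.5% called in either direction, against 6.53% of all genes tested. Dcn, which encodes the proteoglycan decorin and is imprinted in the mouse placenta, had 8.44 ± 0.705 FPKM in conditioned and 11.9 ± 0.478 FPKM in control libraries (log2 fold change -0.45 ± 0.06 SE, limma adjusted p = 0.0047). H13, a signal peptide peptidase gene, had a log2 fold change of -0.17 (adjusted p = 0.035) that lost its call without any single library (adjusted p = 0.064 to 0.13). Ampd3, an AMP deaminase gene, was higher by 0.33 ± 0.06 SE (adjusted p = 0.017) and lost its call without conditioned replicate 1 or 3 or control replicate 2 (0.32, 0.30 and 0.31 on the log2 scale; 0.073, 0.066 and 0.074 as adjusted p). Ndn, a paternally expressed gene for necdin, had 16.4 ± 0.346 FPKM in conditioned and 17.1 ± 0.926 FPKM in control libraries and did not pass (limma adjusted p = 0.59).

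Of 22 listed factors that set or keep imprints, 14 were tested and 0 passed in limma, where 6.53% of all genes tested did. At an unadjusted p below 0.05 Zfp57 was lower and Uhrf1 higher, and by voom Zfp57 was called lower. Trim28, the corepressor that the zinc finger protein Zfp57 brings to imprinted control regions, had 59.2 ± 0.812 FPKM in conditioned and 57.4 ± 0.604 FPKM in control libraries (limma adjusted p = 0.49). Zfp57 itself had 4.67 ± 0.692 FPKM in conditioned and 5.82 ± 0.341 FPKM in control libraries (log2 fold change -0.27 ± 0.09 SE, limma adjusted p = 0.15).

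The genes whose profile over the 6 libraries was most like that of H19 were not members. Likeness was the Euclidean distance between profiles of log2(FPKM + 1), each set to 0 at its control mean, among 7088 genes that averaged 5 FPKM or more. This distance mostly reflects how close a gene's log2 fold change is to that of H19. Members with smaller falls were therefore bound to lie farther away. The nearest were Itm2a (distance 0.12), Cxcl14 (0.16), Igfbp2 (0.20), Col8a2 (0.21) and Cthrc1 (0.22). Itm2a, a small membrane protein gene, had 33.2 ± 1.08 FPKM in conditioned and 54.7 ± 2.27 FPKM in control libraries. The nearest member was Mest, at 0.36, followed by Cdkn1c at 0.44 and Meg3 at 0.59.

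Promoter windows of the RefSeq table (GRCm38.p6, from 250 bases before to 50 after a transcript start) were matched by symbol for 8 members, with 12 windows; H19 and Cdkn1c had no entry. Of the 3 windows of Mest, which fell most among these 8, none held a motif searched for, and the one with the highest share of G and C is shown. The Peg3 window and 1 of the 2 Meg3 windows are shown because they hold the motifs described after them. Capitals mark motif matches.
Meg3, chr12:109540746-109541045, plus strand: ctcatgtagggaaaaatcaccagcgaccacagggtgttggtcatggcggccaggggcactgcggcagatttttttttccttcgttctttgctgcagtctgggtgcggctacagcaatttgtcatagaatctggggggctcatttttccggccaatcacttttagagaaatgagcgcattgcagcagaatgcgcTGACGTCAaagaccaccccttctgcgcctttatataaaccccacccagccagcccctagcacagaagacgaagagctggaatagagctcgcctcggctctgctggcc
Mest, chr6:30737800-30738099, plus strand: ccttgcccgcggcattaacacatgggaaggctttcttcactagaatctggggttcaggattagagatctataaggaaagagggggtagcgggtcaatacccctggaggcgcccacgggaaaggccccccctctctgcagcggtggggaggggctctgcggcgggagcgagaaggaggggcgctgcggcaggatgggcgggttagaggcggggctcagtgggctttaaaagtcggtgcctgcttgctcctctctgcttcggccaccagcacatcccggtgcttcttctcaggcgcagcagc
Peg3, chr7:6730370-6730669, minus strand: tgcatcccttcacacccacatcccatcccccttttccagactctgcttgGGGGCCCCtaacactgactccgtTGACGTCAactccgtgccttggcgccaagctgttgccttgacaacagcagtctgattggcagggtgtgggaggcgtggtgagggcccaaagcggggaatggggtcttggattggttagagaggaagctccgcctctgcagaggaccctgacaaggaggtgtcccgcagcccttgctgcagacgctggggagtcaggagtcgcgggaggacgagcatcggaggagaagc
The palindrome TGACGTCA, the full cAMP response element, begins 57 bases before the start in the Meg3 window and 178 bases before it in the Peg3 window. It was present in 1.79% of 32851 windows of the same length. The palindrome GGGGCCCC, the core of a site that Plagl1 binds, was present in the Peg3 window 201 bases before the start, and in 1.08% of all windows. Both palindromes read the same on either strand. These are letter matches in short windows and no measure of binding. The printed windows held 53.7% (Meg3), 62.7% (Mest) and 61.3% (Peg3) G and C, against a median of 52.7% over all windows.

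**Figure D4:**
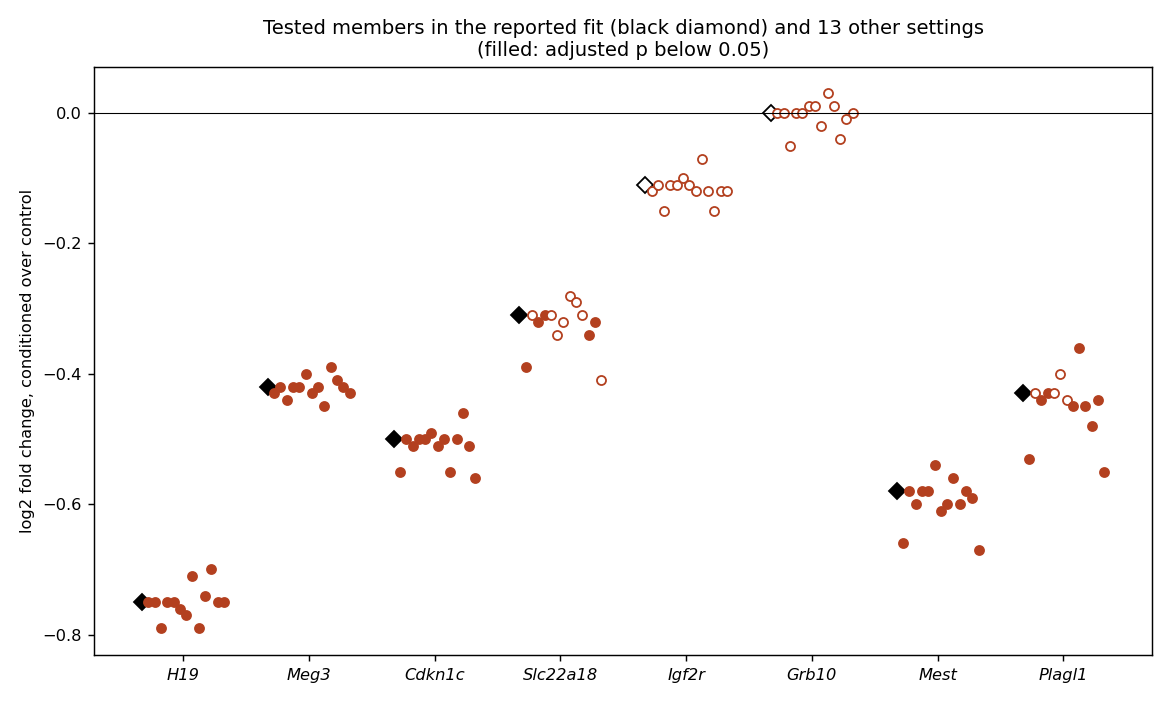
Log2 fold change (vertical), conditioned over control, of the 8 tested members in the reported fit (black diamonds) and in 13 other settings (red circles; filled where the adjusted p was below 0.05). H19, Meg3, Cdkn1c and Mest keep filled symbols in all settings, whereas Slc22a18 and Plagl1 have open ones in 8 and 4 settings.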

How the data were processed

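RNA-seq libraries of sorted tendon cells, 3 with conditioned medium and 3 controls, were grouped by the sample titles. Per the file headers, the authors deposited FPKM values for 24413 genes. Named without a role, per the submitters' processing notes, are HISAT2 2.0.5, CASAVA and the build mm10. Sources used here do not give the counting program, annotation release, strand setting or filters. Factors computed as medians of ratios were the same in all libraries (1.00360), so the deposited values were already on a common median-of-ratios scale. Values were whole multiples of 1 fragment within 0.01 fragment for 24413 genes; gene lengths of GENCODE M21 gave whole fragments for 23565, among them all 10 members, and the smallest fitting length was used for the rest. Floors (3 fragments) cover counting error only.

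Genes averaging 1 FPKM or more were tested with limma 3.58.1 (R 4.3.3) on log2(FPKM + 1), with mean-variance trend, robust prior and no covariate, two-sided; this scale understates changes of low genes. The procedure was tested on simulated data. Tables and figures used Python 3.11.15, numpy 2.4.6, pandas 2.3.3 and matplotlib 3.10.9. Members and lists were chosen with earlier results of these data known. All members are named. Genes of their domains that averaged 1 FPKM or more could be named, and, of the other lists, those that passed and up to 3 of the most abundant. Zfp57, Uhrf1, Cdkn3, Igf2, Kcnq1ot1, Phlda2 and Rtl1 were added after their values were seen. No member rose, so genes of like pattern were sought for H19 alone.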

Additional observations from a re-analysis of the deposited data

How the results depend on the processing

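Each fit made its own calls, and which genes they share was not counted. Limma called 763 genes as reported, 492 of 24413 tested with no filter on low values and 390 with the replicate number as a block. Voom on the recovered fragments (chosen after seeing the data) called 1148. Leaving out 1 library gave 394 to 676 genes, with 413, 394 and 462 without conditioned replicates 1 and 2 and control replicate 2. The count of members called lower was 4 to 6 in all 13 alternatives. H19, Meg3, Mest and Cdkn1c kept their calls in all of them (highest adjusted p = 0.0035, 0.0074, 0.010 and 0.011), as did Rian (0.014), Dio3 (0.023) and Dcn (0.036). With no filter, Slc22a18 and Plagl1 had adjusted p-values of 0.052 and 0.051. With the block these were 0.057 and 0.064. The 6 other domain genes called became 3 with the block and 3 to 5 without 1 library. Same-numbered libraries did not deviate together (correlations of -0.095, -0.008 and -0.048 across genes), so the numbers give no pairing. A pseudocount of 0.1, quantile normalization and scaling to total fragments (chosen after seeing the data) changed no member's call. Median-ratio rescaling, 1 of the 13, could change nothing, since its factors were equal in all libraries, and bears on no result. With the block, Cdkn2b, Igfbp3, Igfbp4 and Irs1 also lost their calls (adjusted p = 0.052, 0.060, 0.12 and 0.058). The sign of Grb10, near 0, varied. Count tests by edgeR or DESeq2 were not run, since the table holds FPKM. Depth limits Slc22a18, Peg3 and Dlk1, where counting alone gives coefficients of variation of 9.38%, 6.97% and 9.45% in conditioned and 7.81%, 5.87% and 9.37% in control libraries.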
